A study of Mus musculus with 6 samples.

Results

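The genes for the clustered, replication-dependent histones were taken as all rows of the expression table whose symbol begins with Hist followed by a cluster number from 1 to 4 and h, the older mouse nomenclature. There were 65 such genes among the 13839 genes of the table, namely 5 for linker histone H1, 18 for H2A, 17 for H2B, 12 for H3 and 13 for H4. Of them 53 carried the cluster number 1, 10 the number 2, 1 the number 3 (Hist3h2a) and 1 the number 4 (Hist4h4). RNA was measured in MLL-ENL-ERtm cells, a mouse line of acute monocytic leukaemia that expresses the MLL-ENL fusion. Cells of the first group carried retroviral hairpins against Tet1 (shTet1, 3 libraries) and those of the second a scrambled hairpin (shNS, 3 libraries). Both groups had the same fusion, were selected with puromycin at 1 µg/mL for 3 passages, were then adapted to SILAC medium (isotope-labelled amino acids) and were sequenced as single reads of 51 bases from poly(A)-selected RNA. The hairpin construct is named shTet1-a+b in the submitters' earlier work. Separate cultures are not stated for the 3 libraries of a group, so a p-value here reflects how far these libraries scatter, and that scatter may be technical.

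Histone genes of this kind are switched on as cells enter S phase, when the new DNA has to be packaged into nucleosomes made of H2A, H2B, H3 and H4, with H1 binding the linker between them. Most of these genes lack introns, and most of their mRNAs end in a conserved stem-loop, bound by SLBP, in place of a poly(A) tail. Many genes of replacement variants instead make polyadenylated mRNA throughout the cell cycle. The human counterparts of some clustered genes are also known to yield polyadenylated RNA. Because poly(A) RNA was isolated before sequencing, less histone mRNA, a smaller polyadenylated share of it and fewer cells in S phase cannot be told apart in these bulk libraries.

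The stem-loop is shown here because it sets these mRNAs apart from others. A search of the annotated GENCODE transcripts, on the strand of the gene, for GG, any 2 bases, CTT, any 3 bases, AG, any 2 bases and CC found it in 44 of the 65 genes and in 1.04% of all other genes. The most frequent forms of the 16 bases are given with the loop of the hairpin in capitals.
Most frequent form, in 3 H1, 10 H2A, 7 H2B and 5 H3 genes: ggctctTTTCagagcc
Form in 2 H2B and 3 H3 genes: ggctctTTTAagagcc
Most frequent form of H4, in 7 genes: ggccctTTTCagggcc
Further H4 form, in 2 genes: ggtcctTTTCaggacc
In the genes where it was found, the stem of the H4 genes thus differed from that of the other classes, while the loop TTTC recurred in all 5 classes. In 26 genes the annotated transcript ended within 300 bases of the stem-loop, and in 18 it ran further, as in Hist1h1c, where 840 annotated bases followed it. No match says only that these letters were not in the annotated transcript.

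Promoter sequences, from RefSeq on GRCm38.p6, were found for 60 of the 65 genes, and the 250 bases before the start were searched on both strands for 4 motifs of histone promoters. CCAAT, the site of the factor NF-Y, was present in all 5 H1, all 18 H2A, all 15 H2B, 8 of 10 H3 and 3 of 12 H4 promoters, and in 34.5% of all promoters. AAACACA, a motif of H1 promoters, was present in 4 of 5 H1 promoters and in 6.22% of all promoters. The octamer ATTTGCAT was present in 7 of 18 H2A and 6 of 15 H2B promoters, in none of the H1, H3 or H4 promoters, and in 1.61% of all promoters. TATAAA stood in 28 of 60 promoters and in 13.0% of all. The 150 bases before the start are given for the clustered gene that rose, for a linker histone gene that fell and for an H3 and an H2A gene, with these motifs in capitals (ATTGG is CCAAT on the other strand). The coordinates are chr13:23738657-23738806 (plus strand) for Hist1h1c, chr13:21780626-21780775 (minus strand) for Hist1h1b, chr13:23562386-23562535 (minus strand) for Hist1h3e and chr13:22042950-22043099 (minus strand) for Hist1h2ag.
Hist1h1c: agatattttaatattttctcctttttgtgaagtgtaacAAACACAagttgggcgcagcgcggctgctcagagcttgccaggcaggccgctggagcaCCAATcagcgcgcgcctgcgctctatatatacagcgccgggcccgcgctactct
Hist1h1b: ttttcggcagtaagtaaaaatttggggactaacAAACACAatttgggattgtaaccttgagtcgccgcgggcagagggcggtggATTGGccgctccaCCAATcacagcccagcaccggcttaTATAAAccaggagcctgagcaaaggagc
Hist1h3e: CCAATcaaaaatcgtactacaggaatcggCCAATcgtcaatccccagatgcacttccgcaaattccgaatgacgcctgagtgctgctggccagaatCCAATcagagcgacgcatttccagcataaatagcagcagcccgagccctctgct
Hist1h2ag: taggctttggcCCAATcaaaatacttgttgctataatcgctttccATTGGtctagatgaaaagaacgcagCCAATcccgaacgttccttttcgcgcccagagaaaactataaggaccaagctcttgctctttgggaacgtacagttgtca
The H1 promoter whose gene rose and the one whose gene fell both held CCAAT and AAACACA. In the 150 bases shown, TATAAA stood in that of Hist1h1b and not in that of Hist1h1c. A match is a description of the sequence and not a measured binding site.

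Tet1, the target of the hairpins, stood at 0.0982, 0.155 and 0.139 FPKM (reads scaled to the length of the gene model and the depth of the library) in the shTet1 libraries, against 0.489, 0.392 and 0.446 FPKM in the shNS libraries. The groups did not overlap, and the shTet1 mean was 29.6% of the shNS mean. Tet1 stayed below the 1 FPKM needed for the limma fit used below and was not tested in it. Its values rest on few reads, 25, 39 and 31 in shTet1 and 128, 93 and 106 in shNS. Between 15873632 and 18592139 reads per library fell on genes. All 16 myeloid marker genes were present in the table, 10 rose and 2 fell, and their summed level was 13651 to 19280.4 FPKM in shTet1 against 7035 to 7392 FPKM in shNS. Of 8 tested macrophage markers 7 rose, with sums of 845 to 1079 FPKM in shTet1 and 234 to 282 FPKM in shNS. For comparison, 19.4% of all tested genes rose and 33.7% fell. Marker sums of other lineages were low, at 1.77 to 2.94 FPKM in shTet1 and 4.16 to 5.81 FPKM in shNS for 7 erythroid genes. For 4 T and NK cell genes they were 2.80 to 3.78 FPKM in shTet1 and 5.83 to 6.76 FPKM in shNS, and for 4 B cell genes 3.22 to 4.09 FPKM in shTet1 and 3.01 to 3.34 FPKM in shNS. The 5 stromal genes in the table summed to 89.2 to 122 FPKM in shTet1 and 68.7 to 72.3 FPKM in shNS. No marker in the table was at 0 in any library. The part of these marker changes in the histone results was not tested.

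Nearly the whole histone set was lower in the knockdown. Of the 65 genes, all of which reached at least 1 FPKM in at least 3 libraries and were tested, 56 fell and 1 rose (limma on log2(FPKM + 1), Benjamini-Hochberg adjusted p under 0.05 over all 11646 tested genes), while 33.7% of all tested genes fell and 19.4% rose. The median log2 change of the 65 genes was −0.92, against −0.13 for all tested genes, and the median gene held 51.8% of its shNS level. Changes ran from −1.60 for Hist1h3c to 0.55 for Hist1h1c. Every shTet1 library lay below every shNS library in 50 of the 65 genes, which was so for 39.1% of all tested genes. The authors' deposited table gave 55 of the 65 genes as lower and 1 as higher at adjusted p under 0.05, and gave 22.1% of all its genes as lower. Scaling by median of ratios brought the all-gene median to −0.01, with 2896 genes higher and 2742 lower in place of 2254 and 3925, and left 49 histone genes lower, 1 higher and their median at −0.79.

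The count moved with single libraries, as did that of all genes. Without shNS replicate 3 the number of lower histone genes was 45, without shNS replicate 2 it was 46, and it was 51 to 60 without any other single library. The number of lower genes among all tested was 2676 and 3027 in the first 2 settings, against 3925 with all libraries. In all, 11 of the 56 lower genes, among them Hist2h2ac, Hist4h4, Hist1h2aa and Hist1h4i, missed the threshold without at least 1 library, with limma adjusted p between 0.0518 and 0.15. With the replicate number as a block 61 genes were lower and 1 was higher, against 41.0% and 23.1% of all tested genes. The values do not settle how replicates 2 and 3 pair, so blocked p-values depend on the numbering in the titles. The 5 genes gained were Hist1h1a, Hist1h1d, Hist1h2bc, Hist2h2ab and Hist2h2bb.

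**Figure D1:**
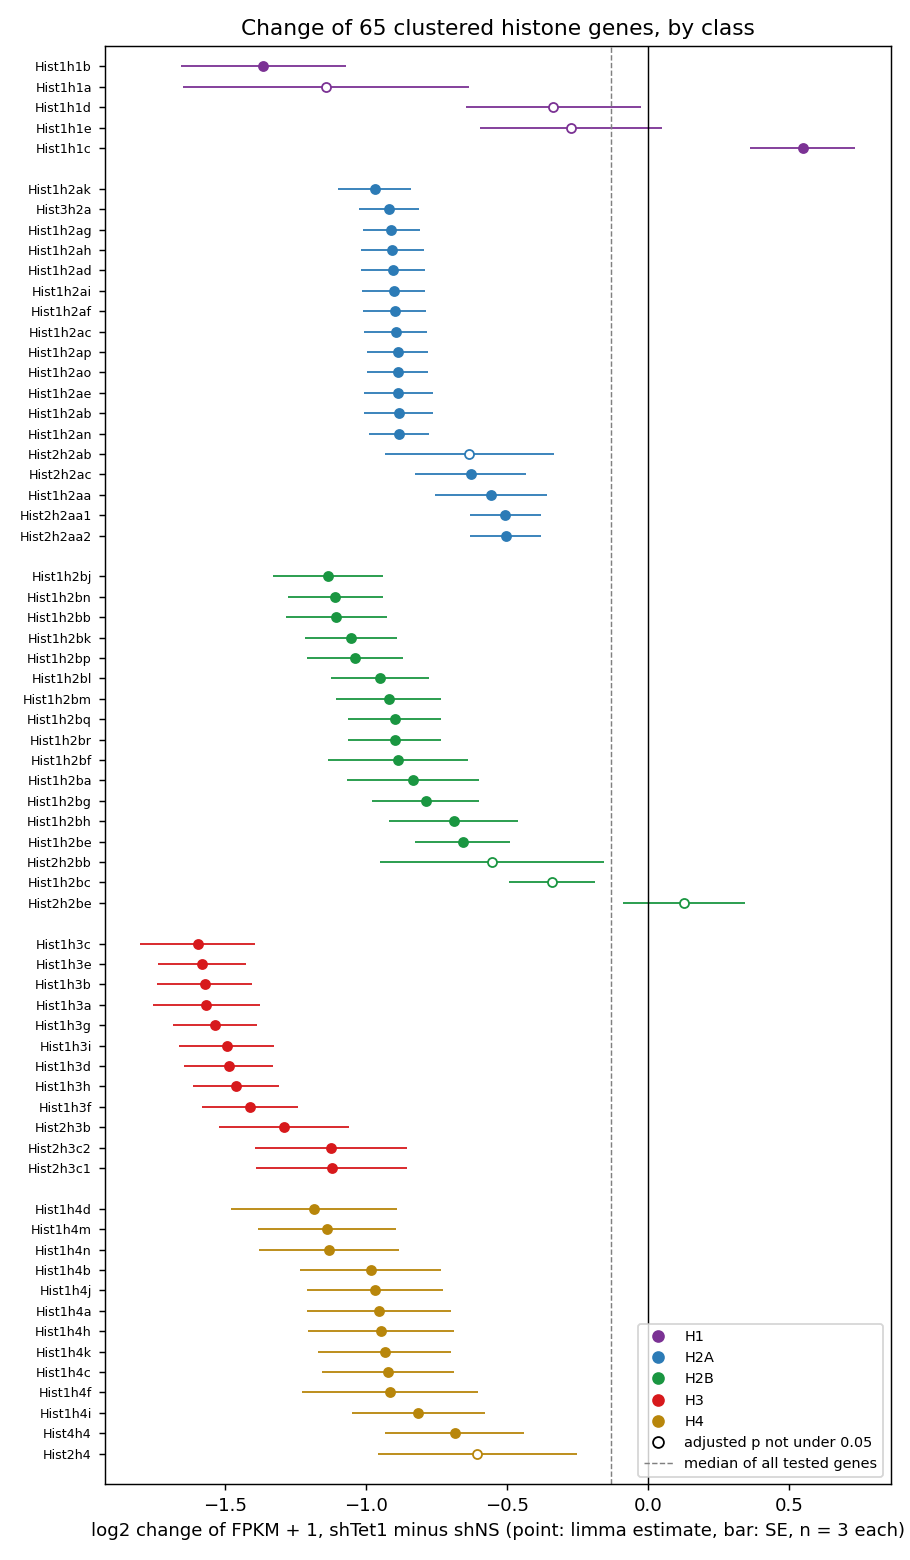
The log2 change of FPKM + 1 (x axis, shTet1 minus shNS) is drawn for each of the 65 clustered histone genes, grouped by class, with its standard error from limma (n = 3 libraries a group). Open points did not pass adjusted p 0.05; the dashed line is the median of all tested genes at −0.13. All 12 H3 genes lie between −1.60 and −1.12, and Hist1h1c at 0.55 is the filled point on the right of 0.

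The linker histone genes moved apart from each other. Hist1h1c (chromosome 13, 23738807 to 23739531, GRCm38) was the most abundant of the 5, with 45.5, 76.6 and 58.7 FPKM in shTet1 replicates 1, 2 and 3, against 35.3, 46.6 and 38.9 FPKM in shNS. Each shTet1 library was above the shNS library of the same number, yet the groups overlapped, since shTet1 replicate 1 lay below shNS replicate 2. Its means were 60.3 ± 15.6 FPKM in shTet1 and 40.3 ± 5.78 FPKM in shNS (SD, n = 3 each), a log2 change of 0.55 (SE 0.19, limma adjusted p = 0.0374). The rise passed the threshold with the replicate number as a block (adjusted p = 0.0015) and without both replicate 1 libraries (0.64, adjusted p = 0.00758). The threshold was missed without shTet1 replicate 2 (0.36, limma adjusted p = 0.11), shTet1 replicate 3 (0.55, 0.0784), shNS replicate 1 (0.46, 0.103) or shNS replicate 3 (0.53, 0.102). In the authors' deposited table its log2 change was 0.72, with an adjusted p of 0.00045.

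Hist1h1b and Hist1h1a share no 51-base stretch with any other clustered histone gene; stretches shared with genes outside the set were not counted. Hist1h1b (chromosome 13, 21779832 to 21780625) had 0.627, 1.20 and 1.67 FPKM in shTet1, against 2.44, 6.05 and 5.74 FPKM in shNS. All shTet1 libraries were below all shNS libraries, with replicate 1 lowest in each group. The shTet1 mean was 24.6% of the shNS mean, the lowest share of all 65 genes, and the log2 change was −1.37 (SE 0.29, limma adjusted p = 0.0059). These values rest on few reads, 9, 17 and 21 in shTet1 and 36, 81 and 77 in shNS.

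Hist1h1a had 0.743, 2.26 and 3.38 FPKM in shTet1, against 1.88, 8.83 and 8.50 FPKM in shNS. The groups overlapped through the low shNS replicate 1, and its log2 change of −1.14 (SE 0.51) did not pass (limma adjusted p = 0.0914); it passed with the replicate block (0.00138) and without shNS replicate 1 (−1.73, 0.00606). Hist1h1d had 6.70, 13.2 and 9.50 FPKM in shTet1 and 7.34, 17.2 and 14.2 FPKM in shNS. Hist1h1e had 7.50, 14.2 and 11.0 FPKM in shTet1 and 7.42, 18.3 and 15.8 FPKM in shNS. In both genes the groups overlapped widely and replicate 1 was low in both groups. Their log2 changes of −0.34 (SE 0.31) and −0.27 (SE 0.32) did not pass (limma adjusted p = 0.39 and 0.503). With the replicate block Hist1h1d passed (0.0201) and Hist1h1e did not (0.0613). Without both replicate 1 libraries both passed (−0.45 with limma adjusted p = 0.0446, and −0.42 with 0.0332). A p above the threshold does not show that these genes kept their level.

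**Figure D2:**
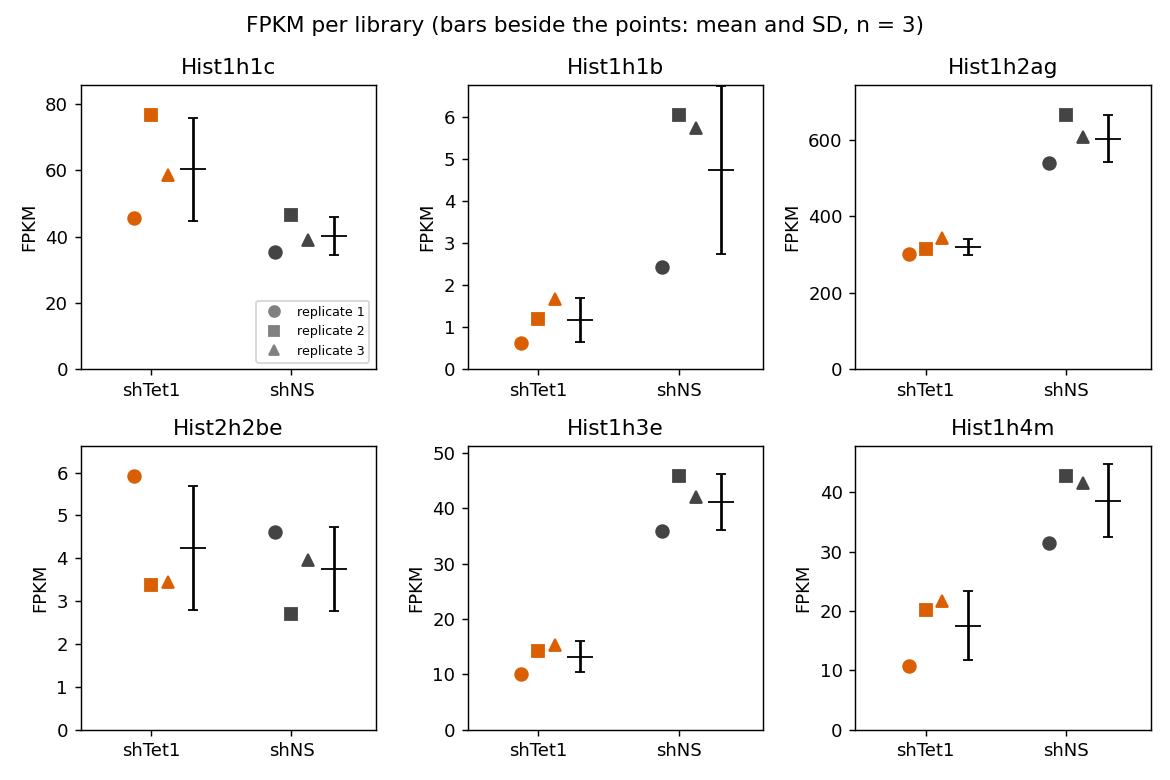
FPKM (y axis, from 0) is drawn for 6 clustered histone genes in each library, with shTet1 on the left and shNS on the right of each panel, symbols for the replicate number and the mean and SD of the 3 libraries beside them. Hist1h1c is higher in shTet1 within every replicate number, Hist2h2be overlaps, and Hist1h1b, Hist1h2ag, Hist1h3e and Hist1h4m show no overlap between groups.

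The genes for H3, which forms a tetramer with H4 at the centre of the nucleosome, kept the smallest shares of their shNS levels among the core histones, with a median of 34.7% against 50.8 to 53.7% for the other core classes. All 12 fell, all 12 without overlap between groups, and the shTet1 means were 32.1 to 44.2% of the shNS means. Among all tested genes 33.7% fell, and in 39.1% every shTet1 library lay below every shNS library. The 12 H3 genes share 33.2 to 100% of their 51-base stretches with other clustered genes. They may hold many of the same reads, so they are not 12 separate measurements. Their log2 changes were −1.60 to −1.41 for the 9 genes of cluster 1 and −1.29 to −1.12 for the 3 genes of cluster 2. Of the other 53 genes, Hist1h1b, Hist1h1a, Hist1h2bj, Hist1h4d, Hist1h4m and Hist1h4n had changes below −1.12. The difference between classes was not tested.

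Hist1h3e (chromosome 13, 23561475 to 23562385) had 10.1, 14.2 and 15.3 FPKM in shTet1, against 35.8, 45.8 and 41.9 FPKM in shNS. The highest shTet1 library was less than the lowest shNS library, and the log2 change was −1.58 (SE 0.16, limma adjusted p = 0.0002). Hist1h3b, the H3 gene with the highest mean, had 12.6, 19.4 and 20.8 FPKM in shTet1, against 50.1, 56.1 and 53.4 FPKM in shNS (log2 change −1.57, SE 0.17, limma adjusted p = 0.000281). Hist1h3c had the largest fall of the class at −1.60 (SE 0.20), with 10.6, 17.3 and 20.5 FPKM in shTet1 and 46.7, 51.3 and 49.8 FPKM in shNS. In each of these 3 genes shTet1 replicate 1 was the lowest library and the groups were far apart. Hist1h3g and Hist1h3h stood at 33.4 and 35.5% of shNS.

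In cluster 2, Hist2h3b had 3.86, 8.27 and 6.65 FPKM in shTet1, against 13.4, 17.0 and 18.5 FPKM in shNS (log2 change −1.29, SE 0.23, limma adjusted p = 0.00249). Hist2h3c1 and Hist2h3c2 held the same reads in every library, 72, 186 and 134 in shTet1 and 275, 298 and 326 in shNS, and count as 1 measurement. Their log2 changes were −1.12 and −1.13 (SE 0.27 each). Within the replicate numbers the median H3 difference was −1.77, −1.43 and −1.25 for pairs 1, 2 and 3.

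The highest levels per length of the clustered histones were those of H2A genes that share much of their sequence. H2A genes with little shared sequence had lower means. Hist1h2aa (2.06% shared) had 6.84 FPKM in shTet1 and 10.7 FPKM in shNS, and Hist3h2a (8.95%) had 33.5 and 64.7 FPKM. The part of reads that match several genes in these levels was not tested. Of the 18 H2A genes 17 fell, against 33.7% of all tested genes, and the shTet1 means were 50.4 to 70.1% of the shNS means. The 13 genes of cluster 1 all fell, and 12 of them had log2 changes within −0.97 to −0.88, with Hist1h2aa, at −0.56, the exception. These 12 genes share 51.3 to 100% of their 51-base stretches with other clustered genes, against 2.06% for Hist1h2aa. They may hold many of the same reads, so the narrow band is not 12 separate measurements. Hist1h2ap had the highest mean of all 65 genes, with 397, 419 and 455 FPKM in shTet1, against 689, 878 and 798 FPKM in shNS. The groups were well apart, and the log2 change was −0.89 (SE 0.11, limma adjusted p = 0.000473). Hist1h2ao (−0.89) shares 99.5% of its 51-base stretches with other clustered genes and had almost the same reads as Hist1h2ap, so they too are 1 measurement. Hist1h2ag (chromosome 13, 22042478 to 22042949) had 301, 315 and 343 FPKM in shTet1 and 539, 664 and 607 FPKM in shNS (−0.91, SE 0.10, limma adjusted p = 0.000317), and Hist1h2an stood at 54.0% of shNS.

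The H2A genes outside cluster 1 included both smaller and similar changes. Hist3h2a, the sole member of cluster 3, had 33.3, 34.8 and 32.4 FPKM in shTet1, against 58.2, 75.2 and 60.6 FPKM in shNS, a log2 change of −0.92 (SE 0.11, limma adjusted p = 0.000395). Its value thus sat inside the range of cluster 1, although only 8.95% of its 51-base stretches occur in another clustered gene. In cluster 2, Hist2h2aa1 and Hist2h2aa2, whose reads differ by at most a few per library, had 108, 131 and 131 and 101, 122 and 122 FPKM in shTet1, against 151, 200.1 and 178 and 141, 187 and 166 FPKM in shNS. Both had a log2 change of −0.51 (SE 0.13, limma adjusted p = 0.0108 and 0.0109); with median-of-ratios scaling the change was −0.37 and missed the threshold.

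Hist2h2ac had 38.8, 48.9 and 51.0 FPKM in shTet1, against 52.0, 87.8 and 80.2 FPKM in shNS. The groups did not overlap, by a narrow gap between shTet1 replicate 3 and shNS replicate 1, and the log2 change was −0.63 (SE 0.20, limma adjusted p = 0.0277). That call was lost without shTet1 replicate 1 (−0.51, 0.0518), shTet1 replicate 2 (−0.67, 0.0616), shNS replicate 2 (−0.48, 0.0918) or shNS replicate 3 (−0.55, 0.0963), and with another scaling (−0.50, 0.0814) or limma-voom (−0.51, 0.0785). Hist2h2ab had 15.2, 22.3 and 26.3 FPKM in shTet1 and 20.0, 42.4 and 41.2 FPKM in shNS. Its groups overlapped through the low shNS replicate 1 (−0.63, SE 0.30, limma adjusted p = 0.109). It passed with the replicate block (0.00231) and without shNS replicate 1 (−0.98, 0.00777). Hist1h2aa, an H2A gene best known from germ cells, had 7.10, 5.46 and 7.94 FPKM in shTet1 and 7.49, 11.9 and 12.6 FPKM in shNS (−0.56, SE 0.20, limma adjusted p = 0.0443). The call was lost without shTet1 replicate 2 (−0.42), shNS replicate 2 (−0.47) or shNS replicate 3 (−0.43), with limma adjusted p of 0.15, 0.133 and 0.15, and under 3 further settings: no filter (0.0539), limma-voom (0.171) and median-of-ratios scaling (0.101).

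H2B pairs with H2A in the nucleosome, and 14 of its 17 genes fell, against 33.7% of all tested genes. The log2 changes of these 14 ran from −1.14 to −0.66. Hist1h2bn had 21.4, 23.2 and 28.3 FPKM in shTet1, against 41.2, 61.8 and 59.5 FPKM in shNS (−1.11, SE 0.17, limma adjusted p = 0.0012). Hist1h2bk had 22.6, 24.8 and 31.0 FPKM in shTet1, against 43.8, 63.1 and 59.8 FPKM in shNS (−1.05, SE 0.16, limma adjusted p = 0.00129). In both genes the groups were apart and shNS replicate 1 was the lowest control library. Hist1h2bb and Hist1h2bg stood at 44.8 and 56.7% of shNS. Hist1h2bq and Hist1h2br held identical reads in every library and count as 1 measurement (−0.90, SE 0.16).

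The 3 H2B genes that did not pass were Hist1h2bc, Hist2h2bb and Hist2h2be. Hist1h2bc had 17.9, 20.0 and 23.2 FPKM in shTet1, against 20.6, 29.8 and 28.3 FPKM in shNS. Its groups overlapped through shNS replicate 1, and the change of −0.34 (SE 0.15, limma adjusted p = 0.095) passed with the replicate block (0.0133) and without shNS replicate 1 (−0.50, 0.0153). Hist2h2bb had 0.786, 2.62 and 2.55 FPKM in shTet1, against 1.31, 5.05 and 4.20 FPKM in shNS (−0.55, SE 0.40, limma adjusted p = 0.272). On 7 to 42 reads per library it was low in replicate 1 of both groups, and it passed with the block (0.00391) and without shNS replicate 1 (−0.98, 0.0319).

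Hist2h2be (chromosome 3, 96221072 to 96223738) had 5.92, 3.37 and 3.44 FPKM in shTet1, against 4.62, 2.69 and 3.96 FPKM in shNS. It was the 1 histone gene of the 65 in which replicate 1 was the highest library of either group, and the groups overlapped. Its log2 change was 0.13 (SE 0.22, limma adjusted p = 0.643) and turned negative without shTet1 replicate 1 (−0.090) or without shNS replicate 2 (−0.04). Its gene model was 2618 bases long and it shares no 51-base stretch with other clustered genes.

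Of the 13 H4 genes 12 fell, all 11 of cluster 1 among them, with shTet1 means of 45.1 to 57.7% of shNS. The share of all tested genes that fell was 33.7%. Hist1h4m had 10.8, 20.2 and 21.6 FPKM in shTet1, against 31.5, 42.7 and 41.7 FPKM in shNS (−1.14, SE 0.24, limma adjusted p = 0.00587). Hist1h4j, the H4 gene with the highest mean, had 16.8, 25.7 and 32.1 FPKM in shTet1, against 36.9, 57.0 and 52.9 FPKM in shNS (−0.97, SE 0.24, limma adjusted p = 0.0108). Replicate 1 was the lowest library of both groups in all 13 H4 genes. Hist1h4n stood at 45.9% of shNS. Hist1h4i had 17.0, 29.1 and 34.1 FPKM in shTet1 and 38.6, 51.6 and 48.8 FPKM in shNS (−0.81, SE 0.24, limma adjusted p = 0.0206), and was lost without shNS replicate 2 (−0.73, 0.0673) or shNS replicate 3 (−0.77, 0.0676).

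Hist4h4 (chromosome 6, 136803993 to 136804431), which lies apart from the other histone clusters, had 2.02, 3.96 and 3.01 FPKM in shTet1, against 3.67, 7.56 and 5.26 FPKM in shNS. The groups overlapped slightly, through shTet1 replicate 2 and shNS replicate 1. The log2 change was −0.69 (SE 0.25, limma adjusted p = 0.0465), and it was lost without shTet1 replicate 1 (−0.50, 0.094), shTet1 replicate 3 (−0.70, 0.0904), shNS replicate 2 (−0.47, 0.141) or shNS replicate 3 (−0.69, 0.105), with no filter (0.0558), with limma-voom (−0.71, 0.149) and after median-of-ratios scaling (−0.58, 0.101). Hist2h4 was near the limit of detection, with 1, 14 and 4 reads in shTet1 and 8, 10 and 18 reads in shNS (−0.61, SE 0.35, limma adjusted p = 0.181). It did not pass with all 6 libraries, and it passed without shTet1 replicate 2 (−0.99, 0.0305), the library with 14 reads.

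The 53 genes of cluster 1 lie on chromosome 13 in 4 stretches, of which those of 21715711 to 21837530 (18 genes), 22035122 to 22043658 (5 genes) and 23933725 to 23934913 (2 genes) held only genes that fell. The remaining stretch, 23531044 to 23764412, held 28 genes, of which 23 fell, and contained Hist1h1c, which rose; its flanking genes Hist1h4c and Hist1h3c changed by −0.92 and −1.60. On chromosome 3, 96219885 to 96270192, 6 of the 10 genes of cluster 2 fell, with a median of −0.62. There the H3 genes changed by −1.29 to −1.12 and their neighbours Hist2h2aa1 and Hist2h2aa2 by −0.51.

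An H2A and an H2B gene often face each other across a shared promoter. There were 12 such pairs with starts at most 500 bases apart, and in 10 both genes fell. Of all 18 H2A genes 17 fell, and of all 17 H2B genes 14, against 33.7% of all tested genes. The difference between partners was 0.14 on the log2 scale at the median and at most 0.76. In cluster 1 the median change was −0.90 for H2A and for H2B, so unpaired genes were also alike. The pairs Hist1h2bq with Hist1h2ao and Hist1h2ap with Hist1h2br hold nearly the same reads and count as 1 measurement. They gave the smallest differences, 0.0109 and 0.0105. The part of the shared promoter was not tested. The widest gaps were those of Hist2h2ac (−0.63) and Hist2h2be (0.13), and of Hist1h2ac (−0.90) and Hist1h2bc (−0.34). Partners of the other pairs lay within 0.28 of each other.

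**Figure D3:**
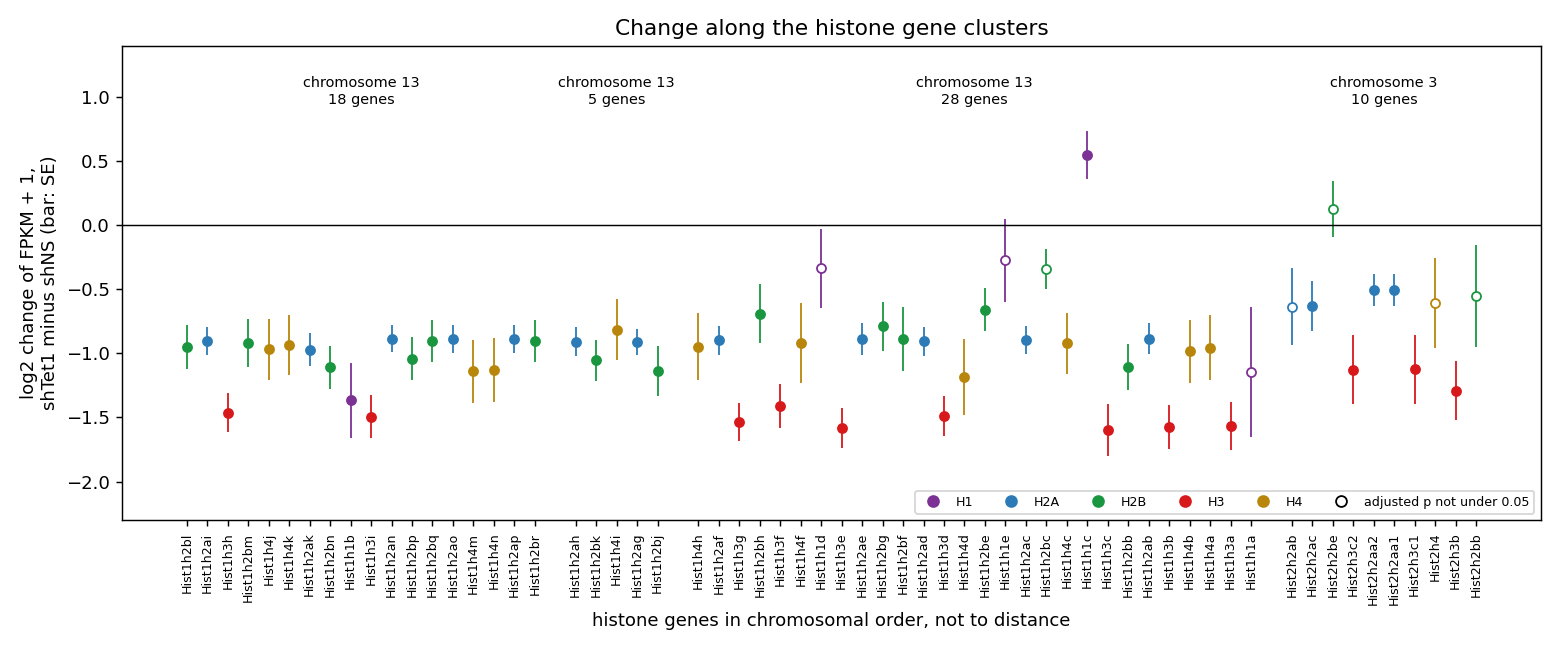
The log2 change of FPKM + 1 (y axis, shTet1 minus shNS, bar: SE) is drawn for the 61 clustered histone genes in stretches of at least 5, in chromosomal order and coloured by class; open points did not pass adjusted p 0.05. An H3 gene is the lowest point of each of the 3 stretches that hold one, and Hist1h1c stands alone above 0.5.

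The replicate 1 libraries stood apart for histone genes in both groups. Replicate 1 was the lowest shTet1 library in 61 of the 65 genes (93.8%, against 38.6% of all tested genes) and the lowest shNS library in 64 of 65 (98.5%, against 36.2%). On the log2 scale its median distance from the other libraries of its group was −0.50 in shTet1 and −0.42 in shNS, against 0.01 and 0.02 for all tested genes. The distance differed by class. For H1 it was −0.66 in shTet1 and −1.004 in shNS, whereas for H3 it was −0.62 in shTet1 and −0.15 in shNS. The distance was smaller in the gene lists described below. For the DNA replication genes the medians were −0.08 in shTet1 and 0.01 in shNS. For histone variants outside the clusters they were −0.17 and −0.03, and for histone chaperones −0.14 and −0.05. For the transcription and 3′ end processing genes they were −0.01 and 0.01. Without both replicate 1 libraries 62 histone genes were lower and 1 was higher, and the median was −0.95.

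**Figure D4:**
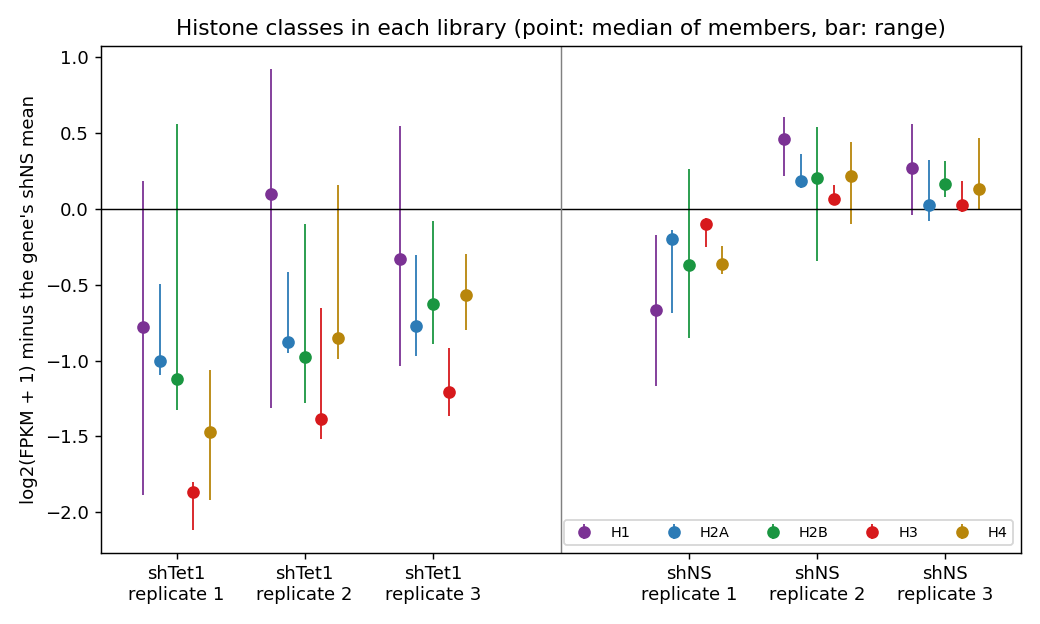
Each point is the median over a histone class of log2(FPKM + 1) minus the gene's mean in shNS (y axis), in each of the 6 libraries (x axis, shTet1 on the left), and each bar is the range of the class. Replicate 1 is the lowest library of its group for every class, and the H3 medians of shTet1 lie at −1.87, −1.38 and −1.21.

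RNAs that normally lack a poly(A) tail were examined because such RNA can be carried into the libraries. Whether their level measures that was not tested. Of 81 such RNAs in the table, mostly small nucleolar RNAs, 35 were lower and 1 was higher in shTet1, where 33.7% and 19.4% of all tested genes were, with a median log2 change of −0.76. With the replicate block 46 were lower and 1 was higher, where 41.0% and 23.1% of all tested genes were. Their summed level was 1055, 1051 and 1677 FPKM in shTet1, against 2044, 2377 and 2340.1 FPKM in shNS. The ribosomal RNA precursor Rn45s, 1 of them, had 194, 201 and 586 FPKM in shTet1 and 243, 940.1 and 831 FPKM in shNS. Its groups overlapped, with shNS replicate 1 close to the 2 lower shTet1 libraries. Rn45s does not stand for the 81 RNAs in this. Over the set, the median log2 distance of replicate 1 from the other libraries of its group was 0.17 in shNS and −0.05 in shTet1. The part of poly(A) selection in the histone changes was not tested.

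Near-identical genes limit how many separate measurements the 65 rows hold. A median of 58.8% of the 51-base stretches of a gene occurred in at least 1 other clustered histone gene, and 42 genes shared at least 50% of theirs. How reads that match several genes were counted is not given in the sources used here. Grouped by sequence at 50% sharing, the 65 genes formed 43 groups. Of the 8 genes that shared at most 10%, 4 fell (Hist1h1b, Hist1h2aa, Hist3h2a and Hist4h4), and the median of the 8 was −0.65; with the replicate block 6 were lower. For the 42 genes with at least 50% the count was 42 and the median −0.95.

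By annotated transcript end, all 26 genes whose transcript ended within 300 bases of the stem-loop fell, with a median of −0.93. Among the 18 whose annotated transcript ran further 14 fell, Hist1h1c rose, and Hist1h1d, Hist1h1e and Hist2h4 did not pass, with a median of −0.91. Where no stem-loop was found, 16 of 21 fell, with a median of −0.90. The medians of the 3 sets were thus close to each other.

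Of 35 genes for histone transcription and 3′ end processing 34 were tested, 23 fell and 2 rose, with a median log2 change of −0.41, while 33.7% of all tested genes fell and 19.4% rose. Zcchc11, a terminal uridylyltransferase that adds uridines to RNA ends, had 4.27, 3.09 and 2.91 FPKM in shTet1, against 10.5, 7.33 and 9.07 FPKM in shNS (−1.17, SE 0.16, limma adjusted p = 0.000691). Its groups were far apart, and its relative Zcchc6 was among the 2 that rose (0.30, SE 0.08, limma adjusted p = 0.0138; missed without shNS replicate 2, 0.0526). The other was Lsm10, a subunit of the U7 snRNP that cleaves histone precursors (0.35, SE 0.11, limma adjusted p = 0.031; missed without shTet1 replicate 2, 0.101, shNS replicate 2, 0.0986, or shNS replicate 3, 0.122). Both were named after their values were seen.

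Several factors of histone transcription and cleavage fell. Nfya, a subunit of the CCAAT-binding NF-Y, stood at 21.8, 21.8 and 23.0 FPKM in shTet1, against 32.3, 32.8 and 33.1 FPKM in shNS (−0.54, SE 0.07, limma adjusted p = 0.000668). Cstf2, a cleavage factor subunit, stood at 58.6% of shNS (−0.72, SE 0.11) and Cpsf4, a subunit of the polyadenylation specificity factor, at 70.7% (−0.47, SE 0.08). Slbp, which encodes the stem-loop binding protein, had 38.6, 32.2 and 39.2 FPKM in shTet1, against 53.6, 46.9 and 49.5 FPKM in shNS (−0.44, SE 0.10, limma adjusted p = 0.00767). Npat, the coactivator of histone loci, changed by −0.42 (SE 0.11, limma adjusted p = 0.0165), and missed the threshold with median-of-ratios scaling (−0.30, 0.0523), without shTet1 replicate 2 (0.0634) or without shNS replicate 3 (0.062). The groups did not overlap in any of these 5 genes, of which Slbp and Npat were added for their roles.

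In the limma fit, the histone variant genes outside the clusters fell or did not pass. Of 16 such genes 11 were in the table and 10 were tested, of which 6 fell, with a median of −0.50. Among all tested genes 33.7% fell. H2afy, which encodes macroH2A, had 226, 251 and 275 FPKM in shTet1, against 385, 417 and 425 FPKM in shNS (−0.71, SE 0.09, limma adjusted p = 0.00068). H2afz, H2afx (the variant phosphorylated at DNA breaks) and Cenpa (the H3 of centromeres) fell by 0.60, 0.75 and 0.65 on the log2 scale. H2afv (−0.63) and H2afy2 (−0.41, limma adjusted p = 0.0493) also fell. The call of H2afy2 was lost with a pseudocount of 0.1 (0.052), with limma-voom (0.124), after scaling by median of ratios (−0.32, 0.114) and without each single library other than shTet1 replicate 1 (limma adjusted p 0.0924 to 0.146). These 2 were named after their values were seen.

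The genes of the replacement H3 (H3f3a and H3f3b) and of the replacement linker histone (H1f0) did not pass in the limma fit. H3f3a had 659, 584 and 529.6 FPKM in shTet1, against 594, 537 and 547 FPKM in shNS, with overlapping groups (0.07, SE 0.10, limma adjusted p = 0.558). H3f3b had 304, 393 and 378 FPKM in shTet1, against 426, 434 and 437 FPKM in shNS, without overlap (−0.28, SE 0.11, limma adjusted p = 0.0581; 0.021 with the replicate block). H1f0 had 81.3, 92.8 and 84.8 FPKM in shTet1, against 82.0, 81.0 and 74.7 FPKM in shNS (0.12, SE 0.08, limma adjusted p = 0.252). H2afj, an H2A variant, did not pass either (0.13). In the limma fit 0 variants rose, and 0 had an unadjusted p under 0.05 in that direction, whereas limma-voom called 2, H2afj (0.26) and H1f0 (0.25), each with an adjusted p of 0.049. The difference between the clustered and the replacement genes was not tested.

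Histone chaperones and the replication machinery were lower with the histones. Of 35 chaperone genes 33 were tested and 26 fell, with a median of −0.69. Among all tested genes 33.7% fell and 19.4% rose. By limma or limma-voom 0 chaperone genes rose, and 0 did so at an unadjusted p under 0.05. Rbbp7, a histone-binding subunit of several chromatin complexes, had 57.1, 55.4 and 69.0 FPKM in shTet1, against 125, 119 and 127 FPKM in shNS (−1.03, SE 0.10, limma adjusted p = 0.000177). The groups were well apart, as they were in Dnajc9 (−0.77), Npm3 (−0.81) and Supt16 (−0.73), a subunit of the chaperone FACT. All 40 DNA replication genes fell by limma, with a median of −0.79, against 33.7% of all tested genes. By limma-voom 38 fell, and 0 rose by either tool or at an unadjusted p under 0.05. Dut, which keeps uracil out of DNA, had 21.2, 21.5 and 26.4 FPKM in shTet1, against 49.4, 48.5 and 48.4 FPKM in shNS (−1.06, SE 0.10, limma adjusted p = 0.000161). The helicase subunit Mcm7, the polymerase subunit Pole and the single-strand binding subunit Rpa2 changed by −0.99, −0.96 and −0.84.

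**Figure D5:**
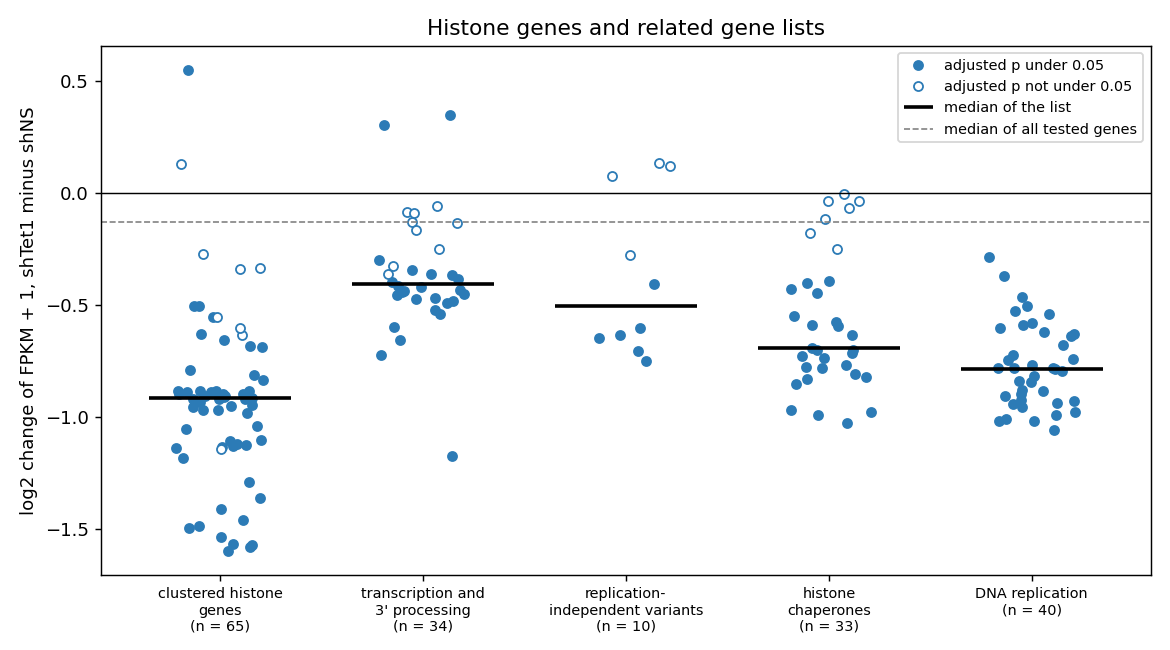
Log2 changes of FPKM + 1 (y axis, shTet1 minus shNS) are drawn for each tested gene of the clustered histones and of 4 related lists (x axis), with open points for genes that did not pass adjusted p 0.05, a bar at each list's median and a dashed line at the median of all tested genes. The medians are −0.92 for the clustered histones, −0.41, −0.50, −0.69 and −0.79 for the lists from left to right, and −0.13 for all genes.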

How the data were processed

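RNA was measured in 3 shTet1 and 3 shNS libraries, grouped by their titles. The authors deposited 1 table for all samples; the submitters' processing notes name the build GRCm38, and no source used here names the aligner or counter. The authors' value per library is FPKM, judged from its numbers. A mean signal per group, deposited beside it, averages scaled reads, and the deposited fold ratio, its log2 value and the p-value are the authors', per the file headers. Whole reads were recovered from the FPKM for 100.0% of values within 0.001 read, which gives the depth.

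limma 3.58.1 in R 4.3.3 was fitted with an intensity trend to log2(FPKM + 1) of the 11646 genes that reached 1 FPKM in 3 or more libraries, with group as the sole term; the threshold was a Benjamini-Hochberg adjusted p of 0.05, two-sided. Fold changes on this scale understate the change of low genes. The fit was run on simulated data with independent reads per gene and few changed genes. That simulation held no reads shared between genes and no shift of replicate 1, so it does not test the histone calls. Annotations and sequences came from RefSeq on GRCm38.p6 and GENCODE release M21; all 65 genes matched both, the implied gene model equalled the RefSeq span in 39, and stretches of 51 bases shared between genes were counted within the span.

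Genes named were, per class, the 3 with the highest mean and the 3 with the smallest p, all members of clusters 2, 3 and 4, any member that went against the rest, and up to 4 genes of each list; others were named after their values were seen, for their role or because they are counted. The members and lists were chosen with earlier results of these data known. The distances of libraries with 1 number from their groups' means correlated across genes at 0.61, 0.36 and 0.21 (pairs of unlike number: −0.52 to 0.34). The 0.34 was that of shTet1 replicate 3 with shNS replicate 2, above the 0.21 of the 2 replicate 3 libraries. The check thus cannot tell how replicates 2 and 3 pair. The numbers in the titles were taken as pairs for the blocked fit. A second numbering in the descriptions is the same for all libraries of a group and was not used. Alternatives were a smaller pseudocount, other filters, median-of-ratios scaling, limma-voom on recovered reads, the block and leaving out libraries.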

Additional observations from a re-analysis of the deposited data

How the results depend on the processing

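Between 45 and 62 histone genes were lower under the 13 alternatives, with a median log2 change of −1.09 to −0.79. Across the 34 named members, 400 of 436 alternative values kept their direction and their side of the threshold, and the sole reversals were those of Hist2h2be without shTet1 replicate 1 (−0.090) and without shNS replicate 2 (−0.04), with a range of −0.090 to 0.26 when single libraries were left out. The number of higher histone genes was 0 to 1 when single libraries were left out. The number of higher histone transcription and processing genes was 0 to 2 when single libraries were left out. limma-voom called 2 higher histone variants outside the clusters, against 0 in the limma fit on log2(FPKM + 1). The replicate block gave 61 lower and 1 higher histone genes, changed the calls of the 5 histone genes and of H3f3b named beside their results, and among all tested genes gave 4780 lower and 2692 higher in place of 3925 and 2254. The causes of these shifts were not tested. The planned edgeR alternative was not run; limma-voom was the fit made on recovered reads. Low reads limit Hist1h1a, Hist1h1b, Hist2h2bb, Hist2h4 and Hist4h4, shared sequence limits most H2A, H2B, H3 and H4 genes, and the poly(A) selection limits all members. With 3 libraries a group, calls near the threshold depend on single libraries.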
